A study of Homo sapiens with 8 samples.

Results

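HCT116 cells, a human colon cancer line, lacking FBXW7 (FBXW7 KO) were compared after recovery from a heat shock and at the end of the heat shock, to ask which transcripts move while these cells return to normal temperature. The libraries were chosen by their labels alone, 2 named for KO cells upon heat shock and 2 for KO cells after recovery, which makes 4 of the 8 libraries of the series. The other 4 libraries came from wild-type (WT) HCT116 cells, 2 upon heat shock and 2 after recovery, and entered the same model only to estimate the spread and to show where the KO response differed. Heat shock lasted 1 h at 42 °C, and recovered cells spent a further 2 h at 37 °C. The treatment text is the same for every library, so the absence of recovery in the heat shock libraries rests on their titles. All cells grew attached in McCoy's 5A medium, and unheated cells were not analysed here. The labels do not say how FBXW7 was disrupted or how many KO clones were used, so genotype and clone cannot be told apart. Nothing in the labels says that replicates 1 and 2 were separate cultures, so each p-value reflects only library-to-library spread, which may be technical.

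FBXW7 is the substrate-binding subunit of an SCF ubiquitin ligase, the enzyme complex that attaches ubiquitin to phosphorylated proteins such as MYC, JUN, cyclin E and NOTCH1 and sends them to the proteasome. HSF1, also described as a substrate of FBXW7, is the transcription factor that switches on chaperone genes when heat unfolds proteins, and its activity normally fades during recovery as chaperones become free to bind it. Heat is also known to touch the immediate early genes downstream of growth-factor signalling, the ATF4 and CHOP branch of the stress response, and the synthesis of ribosomes.

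FBXW7 itself was read at 17.4 and 14.9 CPM (edgeR's counts relative to the TMM-scaled library size) in KO heat shock libraries 1 and 2 and at 14.0 and 13.8 CPM in KO recovery libraries 1 and 2. In WT cells it stood at 33.5 and 31.4 CPM upon heat shock and at 23.0 and 21.7 CPM after recovery. All 4 KO libraries lay below all 4 WT libraries, but whole-gene counts do not resolve the disrupted part. In KO cells FBXW7 changed by −0.21 ± 0.11 on the log2 scale (here and below the estimate ± its standard error, 2 libraries per group), with an adjusted p of 0.135 in edgeR's quasi-likelihood test, which did not pass the threshold of 0.05. With offsets for GC content and transcript length its estimate turned to 0.12.

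The 8 libraries held 15507896 to 34387618 counts each, and 17471 of 55075 genes passed the filter on low counts. Of these genes, 3601 (20.6%) rose in KO recovery and 3694 (21.1%) fell, with a median log2 change of −0.02, and at least 2-fold changes numbered 745 (4.26%) and 421 (2.41%). The KO heat shock libraries stood apart from the other 6. Transcripts of large-subunit ribosomal proteins summed to 20907 and 20455 CPM there and to 37304 to 44566 CPM elsewhere, and mitochondrial tRNAs to 434 and 421 CPM against 3683 to 6813 CPM. Of the 3601 rises, 1713 had both KO heat shock libraries below all other 6 libraries and 1217 had both KO recovery libraries above all other 6. Of the 3694 falls, 2078 had both KO heat shock libraries above all other 6 and 1100 had both KO recovery libraries below all other 6, so a change called here can lie at either end of the comparison. No result can be computed without both of these libraries, and WT levels are therefore given beside the main results. For the lists below, members with a KO group highest or lowest of the 8 libraries are counted whether called or not. The share of all tested genes with the same arrangement was not counted, so these counts alone show no excess.

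The direction of a gene's change moved with its base composition and length. Across 13267 coding genes, which are not independent replicates, Spearman's rho between the KO change and GC content was 0.538, and between the KO change and transcript length −0.341. The WT changes ran the other way, with rho of −0.40 and 0.138. Among coding genes with 35 to 40% GC, 3.39% rose and 66.3% fell in KO recovery, and at 60 to 65% GC 42.5% rose and 3.18% fell. Offsets fitted to GC and length in each library left 2215 of 3465 rises and 1765 of 3573 falls with the same call, and turned 6 rises and 55 falls to the opposite call. Whether RNA quality or the poly-A+ or Ribominus selection, which the labels do not assign to single libraries, differed between the groups was not tested. A gene named below kept its call with these offsets and with any 1 KO library left out unless its loss is stated. Calls that DESeq2 or another scaling removed are named in the closing section. Member counts of every list below are to be read beside all genes, of which 20.6% rose and 21.1% fell, also where these shares are not repeated. Counts with a KO library left out are given in the order heat shock 1, heat shock 2, recovery 1, recovery 2, where 3601 rises became 1520, 2387, 1846 and 2447 and 3694 falls became 1318, 2168, 1399 and 2207. Scaling to total counts instead of TMM shifted the median of all genes to −0.145 and gave 2525 rises and 5104 falls. The authors' deposited table, which tests each KO pair of libraries by itself, has 2762 genes higher and 5174 lower at a q-value under 0.05 in both pairs, and 2711 and 3516 of these were called in the same direction here.

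**Figure D1:**
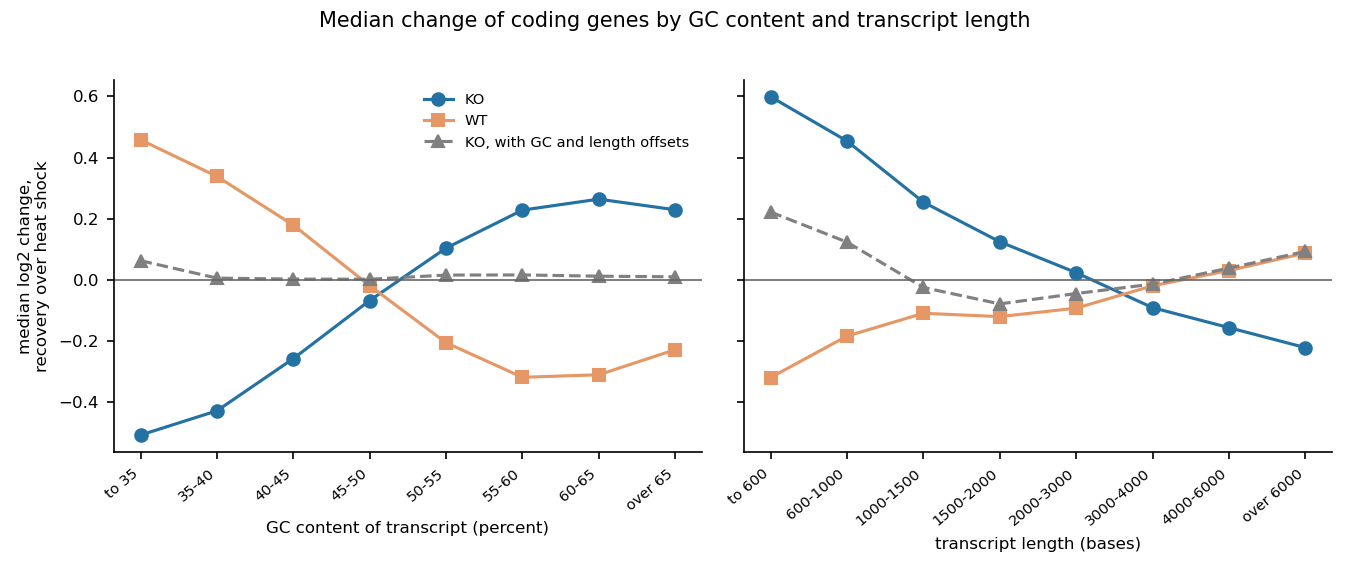
Median log2 change of coding genes in recovery over heat shock (y axis) by GC content of the transcript in percent (left) and by transcript length in bases (right), for KO cells, WT cells and KO cells after offsets for both properties. The KO median climbed from −0.51 below 35% GC to 0.26 at 60 to 65% GC, WT cells ran the other way, and the offsets flattened the GC trend.

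Heat shock chaperones refold or hold unfolded proteins, and more of them rose than fell in KO recovery. Of 40 tested members of the list, 18 rose, 4 fell and 18 did not pass, with a median of 0.17, beside 20.6% and 21.1% of all genes. With 1 KO library left out 12, 14, 14 and 14 rose, with the offsets 22 rose and 3 fell (18.9% and 16.2% of all genes tested so), and with total-count scaling 16 rose and 10 fell with a median of 0.05. The summed level of the list went from 21754 and 20508 CPM to 26677 and 24443 CPM in KO cells, while in WT cells it went from 24617 and 21097 CPM to 14723 and 15836 CPM. In WT cells 24 members fell and 2 rose, beside 26.0% and 24.8% of all genes. The difference between the 2 responses passed the test for 29 members, upward in KO for 25 of them and downward for 4, beside 28.5% and 27.8% of all genes.

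HSPA1B, a stress-induced HSP70, was read at 153 and 136 CPM in the KO heat shock libraries and at 414 and 312 CPM in the KO recovery libraries. Both recovery libraries lay above every other library, WT heat shock included (215 and 119 CPM), and WT recovery was lowest at 26.4 and 19.9 CPM. The KO change was 1.31 ± 0.11 (adjusted p = 2.8e-08). HSPA1A, a near-identical copy, had only 0.966 to 3.88 CPM in the KO libraries, and the sources used here do not say how reads that fit both copies were shared.

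HSPE1, the small cofactor of the mitochondrial chaperonin, rose from 166 and 153 CPM to 467 and 379 CPM, by 1.40 ± 0.10. SERPINH1, a collagen chaperone of the endoplasmic reticulum (ER), rose from 148 and 124 CPM to 410 and 302 CPM, by 1.38 ± 0.14. The groups did not overlap for either gene, though 1 of the WT heat shock libraries held SERPINH1 at 377 CPM, between the KO recovery values, and the other at 223 CPM. DNAJB1, an HSP40, went from 354 and 302 CPM to 559 and 482 CPM (0.67 ± 0.11, adjusted p = 6.9e-05). HSPB1, a small heat shock protein, changed by 0.91 ± 0.11 and by 0.46 with the offsets. HSPH1, an HSP110, went from 458 and 406 CPM to 567 and 533 CPM (0.35 ± 0.11, adjusted p = 0.015). Its call was lost when any 1 KO library was left out and with total-count scaling, and the offsets raised its estimate to 0.77.

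The 4 members that fell were HSPB11, BAG2, FKBP5 and BAG5. HSPB11, which despite its name is a part of intraflagellar transport, had a change of −0.69 ± 0.12, and of −1.04 with the offsets. BAG2 and BAG5, exchange factors of HSP70, fell by 0.43 and 0.31, and FKBP5, a cochaperone of steroid receptors, fell by 0.42. The calls of all 3 were lost with the offsets, which turned BAG2 to 0.12 and BAG5 to 0.01, and on leaving out KO heat shock 1 or KO recovery 1 for BAG2, heat shock 2 or recovery 2 for FKBP5, and any of the 4 for BAG5.

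The promoters of HSPA1B and SERPINH1 are shown because they carry the paired heat shock units to which HSF1 is known to bind. Each is the 250 bases before the RefSeq start on the GRCh38.p14 build, the first at chr6:31827488-31827737 and the second at chr11:75562003-75562252, both on the plus strand. A unit is GAA or its reverse complement TTC, units alternate, and any 2 bases separate them. Capitals mark 2 neighbouring units in HSPA1B and a run of 3 units, which contains overlapping pairs, in SERPINH1.
HSPA1B: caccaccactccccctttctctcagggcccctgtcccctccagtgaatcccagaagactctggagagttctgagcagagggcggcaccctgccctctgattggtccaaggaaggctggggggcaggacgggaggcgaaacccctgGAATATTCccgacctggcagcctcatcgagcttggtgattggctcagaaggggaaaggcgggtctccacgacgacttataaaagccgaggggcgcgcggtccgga
SERPINH1: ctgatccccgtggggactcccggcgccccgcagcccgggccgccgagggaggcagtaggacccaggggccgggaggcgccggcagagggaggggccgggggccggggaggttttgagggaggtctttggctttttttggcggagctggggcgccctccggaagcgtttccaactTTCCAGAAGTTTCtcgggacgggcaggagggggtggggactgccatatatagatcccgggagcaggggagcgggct
On both strands, 2 units were found in 4067 of 35116 single promoters of this length (11.6%), and 3 units in 0.441%. By gene, with any promoter counted, 2 units were found in 18 of the 36 chaperone genes matched by symbol (50.0%). For 3 units it was 7 of 36 (19.4%). A gene with several promoters has more ways to hold a motif, so these shares are not directly comparable with those of single promoters. Of the 17 matched chaperones that rose, 8 held 2 units (47.1%), so the share among the risers was close to that of the whole list.

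**Figure D2:**
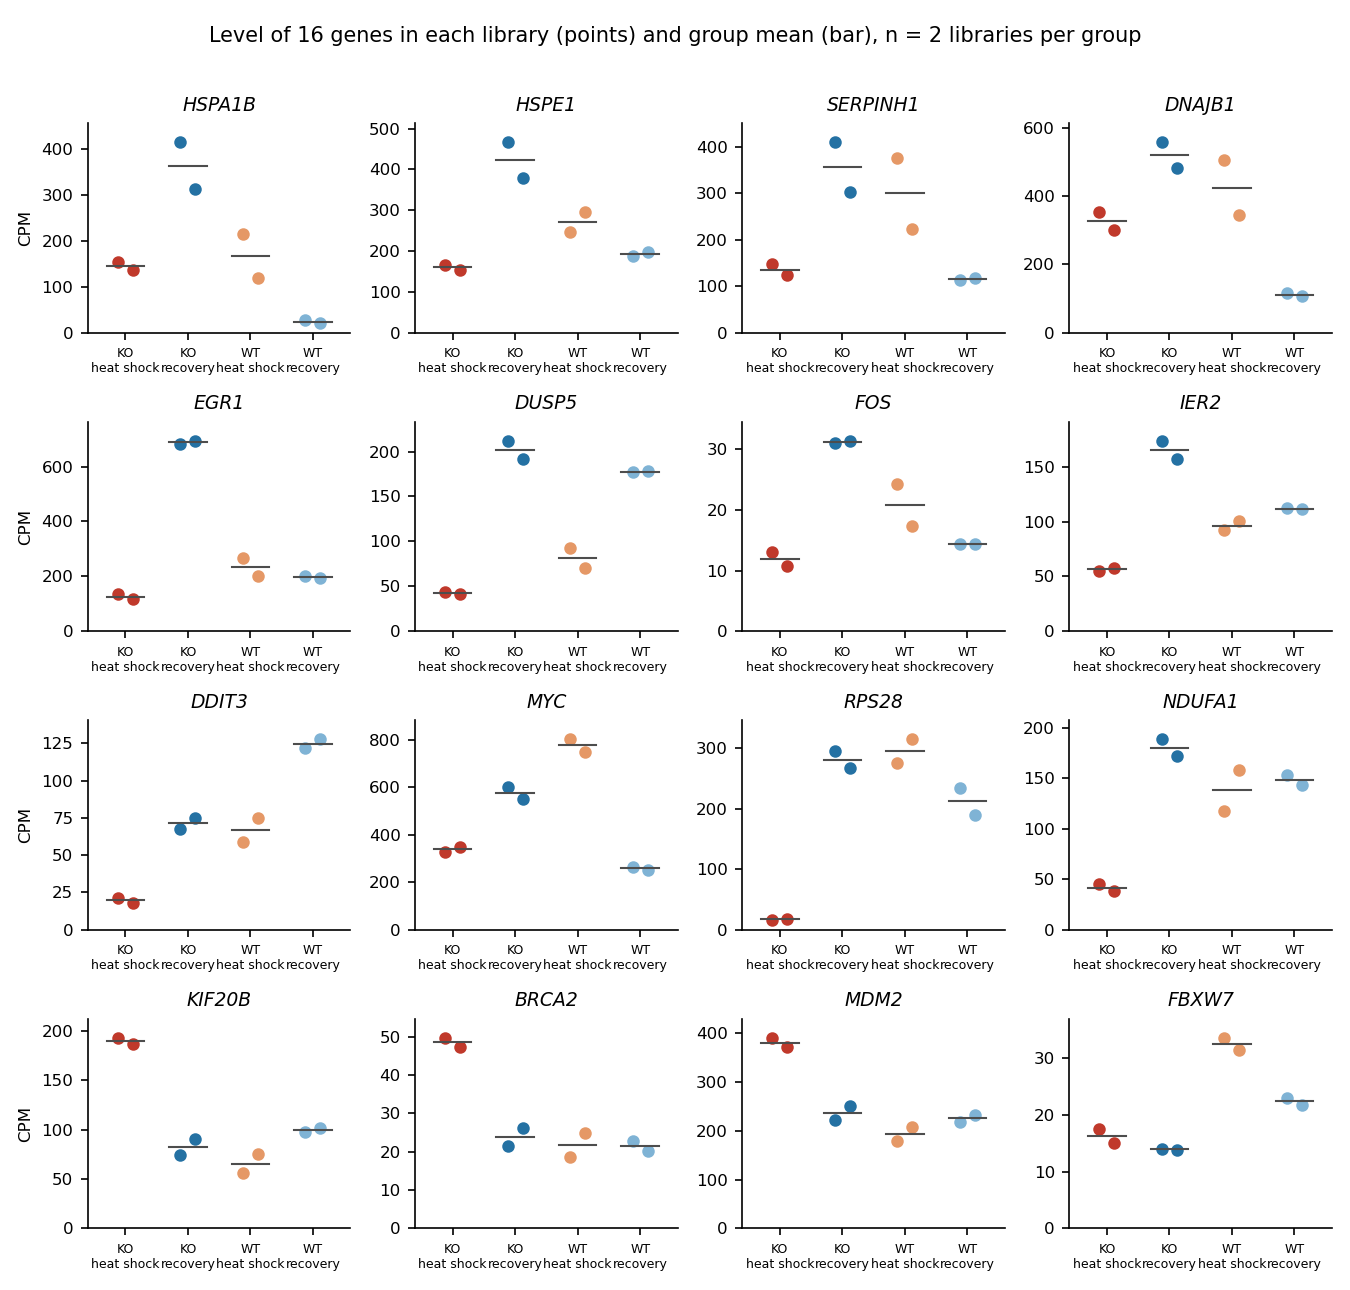
CPM of 16 genes in each of the 8 libraries (points, y axis from 0) by group, with bars at group means, n = 2. HSPA1B was highest in KO recovery (414 and 312 CPM) and lowest in WT recovery (26.4 and 19.9 CPM), EGR1 was highest in KO recovery, and RPS28 and NDUFA1 were lowest in KO heat shock.

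Among 5 heat shock transcription factors and their regulators, HSF1 and HSBP1 rose and HSF2 fell. HSF1 was read at 62.2 and 64.4 CPM upon heat shock and at 81.2 and 73.8 CPM after recovery (0.29 ± 0.10, adjusted p = 0.0197), and both heat shock values were the lowest of the series. That call was lost with the offsets (0.00), with total-count scaling, with DESeq2 and when any 1 KO library was left out. HSF2, a partner of HSF1, fell by 0.44 ± 0.10, a call lost with the offsets and with any 1 KO library left out. HSBP1, which binds the trimer of HSF1, rose by 0.60 ± 0.10, or 0.92 with the offsets, but was not called without KO heat shock 1.

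The chaperonin CCT, which folds actin and tubulin, and its partner prefoldin gave 6 rises and 1 fall among 14 members, and with 1 KO library left out 1, 5, 1 and 5 rises, with a median of 0.08 that total-count scaling turned to −0.05. CCT5 rose from 532 and 546 CPM to 761 and 679 CPM (0.42 ± 0.10), and PFDN5, a prefoldin subunit, by 0.71 ± 0.10, or 0.38 with the offsets. The calls of CCT3 (0.41, 0.26 with the offsets), CCT5 and CCT7 were lost without KO heat shock 1 or recovery 1, that of CCT7 also with the offsets, and the single fall, VBP1 (−0.36 ± 0.10), was lost with the offsets and when any 1 KO library was left out. The tested tubulins and actins, the substrates of CCT, rose in 14 of 18 cases and none fell, with a median of 0.51 (6, 11, 6 and 12 rises with 1 library left out, 8 with the offsets). TUBA1B, an alpha tubulin, went from 432 and 469 CPM to 1044 and 844 CPM (1.06 ± 0.11), with WT heat shock at 837 and 793 CPM, and TUBA1C rose by 0.86 ± 0.10. Tubulin genes are close copies of each other, so their individual counts are uncertain.

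Ubiquitin genes and adaptors of damaged proteins rose in 9 of 16 cases and none fell (4, 7, 6 and 7 rises with 1 library left out), with a median of 0.31. ZFAND2A, an adaptor at the proteasome that is a known HSF1 target, went from 8.84 and 6.91 CPM to 24.9 and 17.1 CPM (1.40 ± 0.16). RPS27A, which encodes ubiquitin fused to a ribosomal protein, rose by 1.11 ± 0.10.

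The proteasome degrades ubiquitin-tagged proteins. Of its 39 subunits 19 rose and 5 fell, with a median of 0.19, beside 20.6% and 21.1% of all genes. When single KO libraries were left out, 7, 17, 9 and 17 rose, and with the offsets 12 rose and 5 fell. PSMA7, a subunit of the core, was read at 164 and 165 CPM upon heat shock and at 402 and 329 CPM after recovery (1.14 ± 0.10, adjusted p = 6.7e-08). PSMC1, an ATPase of the cap, went from 16.7 and 17.1 CPM to 44.1 and 36.9 CPM (1.25 ± 0.11). For both genes the recovery libraries were the highest and the heat shock libraries the lowest of the 8, an arrangement of recovery on top that 16 of the 39 subunits showed. PSMB7, PSMD4 and PSMB6 rose by 1.03, 0.99 and 0.86, the last by 0.46 with the offsets. The falls were smaller and were PSMD5 (−0.48, lost with the offsets), PSME1 (−0.36, −0.71 with the offsets, lost without KO heat shock 1 or recovery 1), PSME4, PSMA4 and PSMD12. The calls of PSME4, PSMA4 and PSMD12 were lost with the offsets and when any 1 KO library was left out. PSME1 and PSME4 encode activators of the core and not parts of its usual cap.

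Immediate early genes are transcribed within minutes of a signal without new protein synthesis, and as a list they were higher after KO recovery. Of 39 members 26 rose and 2 fell, with a median of 0.47, against 20.6% and 21.1% of all genes. Leaving out 1 KO library in turn, 18, 23, 20 and 23 rose, with the offsets 24, and in 21 members both KO recovery libraries lay above the other 6. The summed level was 2650 and 2673 CPM upon heat shock and 4485 and 4385 CPM after recovery in KO cells, and it ran from 3423 and 3120 CPM to 2816 and 2685 CPM in WT cells.

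EGR1, a zinc-finger factor induced by mitogens, was read at 135 and 117 CPM in KO heat shock and at 682 and 694 CPM in KO recovery. WT cells lay between at 268 and 199 CPM upon heat shock and 202 and 192 CPM after recovery, so the KO groups formed both ends. The change was 2.45 ± 0.11 (adjusted p = 7.9e-12), the WT change −0.23, and the difference of 2.68 between them passed the test. EGR2 and EGR3, its relatives, rose by 2.91 ± 0.26 and 2.07 ± 0.20 from under 2 CPM. IER2 rose by 1.55 ± 0.10, and ZFP36, which promotes decay of AU-rich mRNAs, rose from 29.8 and 30.7 CPM to 81.0 and 92.4 CPM (1.52 ± 0.10), a gene that also rose in WT cells (1.16).

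FOS, a subunit of the AP-1 factor, went from 13 and 10.8 CPM to 31.0 and 31.4 CPM (1.40 ± 0.12), and no other library held more than 24.4 CPM. JUN, its partner and an FBXW7 substrate, went from 10.5 and 10.8 CPM to 16.5 and 15.8 CPM (0.60 ± 0.16, adjusted p = 0.00518), a call lost without KO heat shock 1, and both KO groups lay below all WT libraries. ATF3, a stress-induced factor, did not pass the test (0.22 ± 0.12, adjusted p = 0.147), with 26.0 and 20.2 CPM against 25.6 and 27.5 CPM. The 2 members that fell were TIPARP (−0.40) and SGK1 (−0.34), both lost with the offsets. TIPARP was also lost when any 1 KO library was left out, and SGK1 without KO heat shock 1, heat shock 2 or recovery 2.

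The EGR1 promoter is shown because it holds CArG boxes, the sites bound by serum response factor. It is the 250 bases before the RefSeq start at chr5:138465229-138465478, plus strand, GRCh38.p14, with 2 CArG boxes in capitals.
EGR1: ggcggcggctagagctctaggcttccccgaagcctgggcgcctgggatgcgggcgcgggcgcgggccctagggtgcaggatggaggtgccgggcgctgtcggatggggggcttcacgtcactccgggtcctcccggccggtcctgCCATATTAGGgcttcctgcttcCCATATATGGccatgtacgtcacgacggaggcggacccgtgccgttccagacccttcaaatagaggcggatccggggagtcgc
CArG boxes, searched on both strands, were found in 1.16% of the 35116 promoters. By gene, with any promoter counted, they were found in 3 of 30 matched immediate early genes, all 3 among the 20 that rose. None of the 36 chaperone genes had 1.

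The feedback and output genes of ERK, the kinase at the end of the mitogen pathway, gave 11 rises and 2 falls among 25 members, with 11, 10, 11 and 10 rises when 1 KO library was left out. DUSP5, a phosphatase that holds ERK in the nucleus, went from 44.1 and 41.9 CPM to 212 and 192 CPM (2.23 ± 0.11, adjusted p = 1.8e-11), above WT recovery at 177 and 178 CPM. DUSP2 rose by 1.62 ± 0.12 and had a WT change of −1.68. The growth factor AREG, the receptor EPHA2 and the cytokine LIF rose by 1.17, 1.12 and 1.03. ETV1 (−0.51) and SPRED1 (−0.31) fell, calls lost without KO heat shock 1 or recovery 1 and turned to 0.01 and 0.19 by the offsets.

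YAP and TEAD targets, which respond to cell shape and density, gave 7 rises and 1 fall among 14 members, and 3 rises with any 1 KO library left out. NUAK2 rose by 1.44 ± 0.17 and CYR61, a secreted matrix protein, from 19.2 and 20.5 CPM to 45.3 and 40 CPM (1.09 ± 0.12), above every WT library. AMOTL2 rose by 0.53 ± 0.09. The fall was TGFB2 (−1.19 ± 0.31), lost with the offsets and without KO heat shock 1 or recovery 1. Of 20 NF-kappaB factors and targets 2 rose and 2 fell, beside 20.6% and 21.1% of all genes. The rises were CXCL1, at under 1 CPM in the KO libraries, and BCL3 (0.70 ± 0.14, 0.44 with the offsets, lost without KO heat shock 1), and the falls were TNFAIP3 (−0.58) and NFKBIA (−0.39, −0.68 with the offsets), both inhibitors of the pathway. The calls of CXCL1, TNFAIP3 and NFKBIA were lost when any 1 KO library was left out.

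ATF4 and CHOP targets are the genes of the integrated stress response. Of 26 members 14 rose and none fell, with a median of 0.31, beside 20.6% and 21.1% of all genes. In the fits without 1 KO library 6, 8, 7 and 8 rose, and with the offsets 9 rose and 2 fell. In 14 members both KO heat shock libraries were the lowest of the 8, and in 3 both KO recovery libraries were the highest. DDIT3, which encodes CHOP, was read at 21.3 and 18.2 CPM upon heat shock and at 67.4 and 75.2 CPM after recovery in KO cells, and at 59.1 and 74.8 CPM and 122 and 128 CPM in WT cells. KO recovery thus overlapped WT heat shock, and the KO change was 1.85 ± 0.11 (adjusted p = 3.2e-10) against 0.91 in WT. DDIT4, an inhibitor of mTORC1, rose by 1.84 ± 0.10 to 58.3 and 61.5 CPM and stayed below WT recovery at 274 and 276 CPM. TRIB3 and ASNS, the asparagine synthetase, rose by 1.31 ± 0.10 and 0.72 ± 0.10. ATF4 itself rose by 0.34 ± 0.10, a call lost with the offsets, with total-count scaling and when any 1 KO library was left out.

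Amino acid transporters gave 7 rises and 3 falls among 15 members (1, 4, 3 and 4 rises with 1 library left out), and aminoacyl-tRNA synthetases, which charge tRNAs, gave 9 rises and 5 falls among 23 (3, 7, 3 and 8 rises). The glycine transporter SLC6A9 rose by 0.74 ± 0.15, and SLC3A2, the heavy chain of several transporters, by 0.53 ± 0.10 or 0.24 with the offsets, a call lost without KO heat shock 1. The falls were SLC16A10, SLC36A4 and SLC7A11, and with the offsets SLC7A11 was instead a called rise. The calls of SLC16A10 and SLC7A11 were lost when any 1 KO library was left out, and that of SLC36A4 with the offsets and without KO heat shock 1 or recovery 1. MARS, which charges methionine, rose from 172 and 167 CPM to 281 and 267 CPM (0.69 ± 0.10), and AIMP2, a scaffold of the synthetase complex, by 0.83 ± 0.10 or 0.52 with the offsets. The synthetase falls were FARSB, RARS, LARS, EPRS and AIMP1, and none of the 5 was called with the offsets or with any 1 KO library left out.

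The unfolded protein response of the ER gave 12 rises and 4 falls among 29 members (9, 8, 9 and 8 rises with 1 library left out), and 8 rises and 9 falls with total-count scaling. DERL3 and HERPUD1, parts of the machinery that exports misfolded proteins from the ER, rose by 2.65 ± 0.28 and 0.84 ± 0.09. HERPUD1 was read at 125 and 106 CPM upon heat shock and at 210 and 202 CPM after recovery in KO cells, and at 179 and 159 CPM and 27.5 and 27.2 CPM in WT cells, so recovery was the highest group in KO and the lowest in WT cells. SDF2L1, an ER cochaperone, rose by 1.52 ± 0.13 and SYVN1, the ubiquitin ligase of the same machinery, by 0.97 ± 0.10, while CRELD2 rose by 0.91 ± 0.12 and by 0.47 with the offsets. The falls were ERO1L (−0.88 ± 0.10, −0.41 with the offsets), ERO1LB, DNAJC10 and ATF6. ERO1L and ERO1LB encode oxidases that form disulfide bonds. The calls of ERO1LB, DNAJC10 (−0.54) and ATF6 (−0.40, turned to 0.01) were lost with the offsets, and those of ERO1LB and ATF6 without KO heat shock 1 or recovery 1.

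Ribosomal protein transcripts were higher after KO recovery in nearly every case tested. Of 46 large-subunit genes 42 rose and none fell, with a median of 0.87, beside 20.6% and 21.1% of all genes. Of 32 small-subunit genes 31 rose and 1 fell, with a median of 1.11. Their median transcript lengths were 1079.5 and 881 bases. Of coding genes 55.2% rose and 5.03% fell at 600 to 1000 bases, and 41.4% and 9.29% at 1000 to 1500 bases. With the offsets the list medians were 0.71 and 0.91, and those of the length classes 0.12 and −0.02. Across the 4 KO leave-outs 32, 38, 34 and 38 large-subunit and 26, 28, 27 and 28 small-subunit genes rose, and with the offsets 36 of 46 and 26 of 31. In 36 and 28 of them both KO heat shock libraries were the lowest of the 8, while KO recovery was highest in 6 and 6. The summed large-subunit level of 44566 and 39386 CPM in KO recovery was close to that of WT heat shock (39608 and 41555 CPM) and WT recovery (39157 and 37304 CPM).

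RPS28 was read at 15.3 and 18.5 CPM in KO heat shock and at 295 and 267 CPM in KO recovery, with WT libraries at 189 to 314 CPM (4.05 ± 0.14, adjusted p = 1.2e-13). RPS27 was read at 2.96 and 1.88 CPM and at 50.5 and 38.1 CPM (4.21 ± 0.13), with WT libraries at 41.3 to 46.9 CPM. Only the KO heat shock libraries were set apart for these genes. RPL21, RPL17 and RPL41 rose by 3.73 ± 0.19, 3.14 ± 0.16 and 2.90 ± 0.12, and RPS3A, RPS10 and RPS29 by 3.22, 2.58 and 2.23. Each of these genes has processed pseudogene copies, and the sources used here do not say how reads that fit several copies were counted. Processed pseudogenes as a class held 0.321 and 0.234% of counts in KO heat shock and 0.656 and 0.623% in KO recovery. RPSA, also the laminin receptor, was the 1 fall (−0.46 ± 0.10), lost without KO heat shock 2 or recovery 2, and −0.72 with the offsets.

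**Figure D3:**
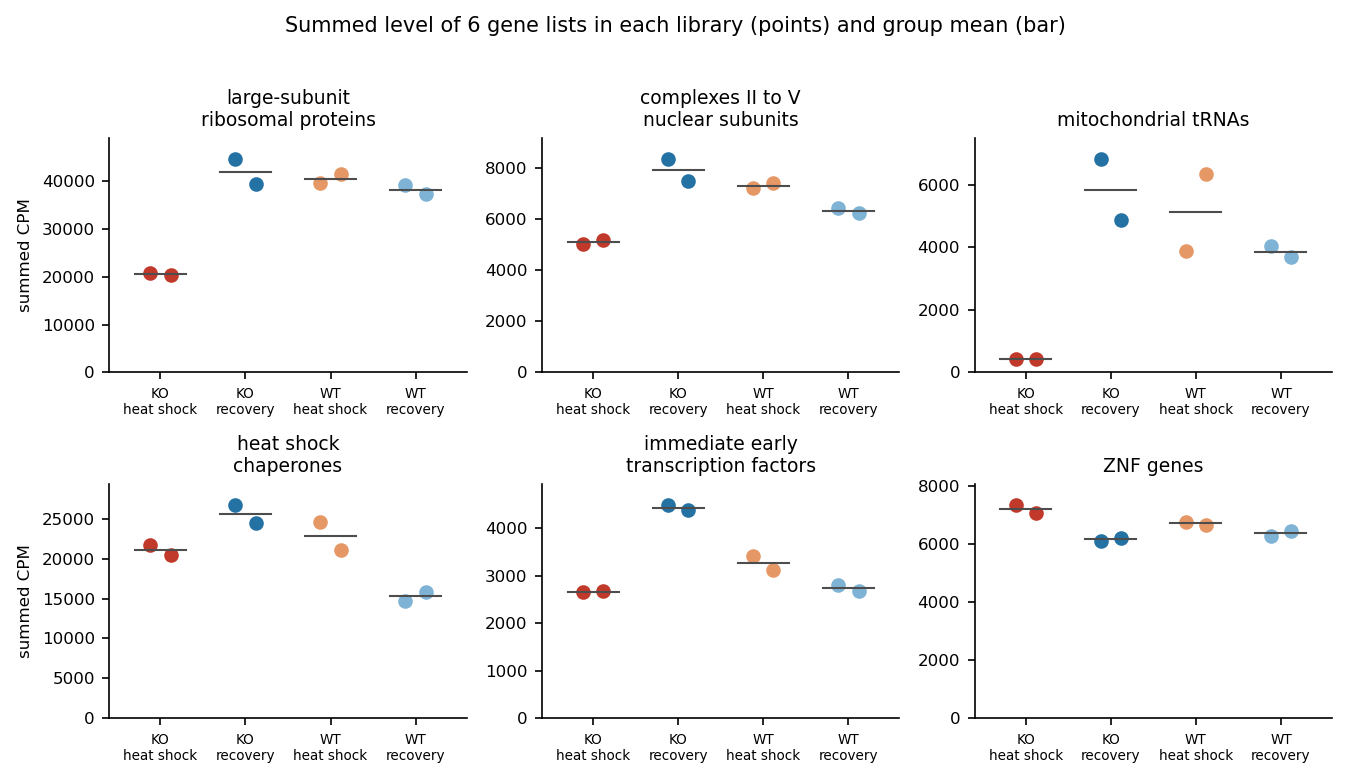
Summed CPM of 6 gene lists in each library (points, y axis from 0) by group, with bars at group means, n = 2. KO heat shock was lowest for ribosomal proteins, respiratory subunits and mitochondrial tRNAs, while immediate early genes were highest in KO recovery (4485 and 4385 CPM) and chaperones lowest in WT recovery (14723 and 15836 CPM).

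Translation factors gave 20 rises and 8 falls among 45 genes (8, 16, 10 and 17 rises with 1 library left out). EEF1B2, an exchange factor of elongation whose gene also hosts small nucleolar RNAs, rose from 94.7 and 92.7 CPM to 287 and 214 CPM (1.40 ± 0.11), and EIF3F, an initiation subunit, by 0.96 ± 0.09. EIF6 rose by 0.86 ± 0.10 (0.43 with the offsets), and EIF1AX fell by 0.52 ± 0.10, which the offsets turned to 0.01. Ribosome biogenesis gave 16 rises and 8 falls among 43 genes (8, 12, 10 and 12 rises), with a median of 0.09 that total-count scaling turned to −0.03. NHP2, a small protein of pseudouridine-forming particles, rose from 62.2 and 57.7 CPM to 227 and 166 CPM (1.70 ± 0.10). POLR1C, shared by RNA polymerases I and III, and PPAN rose by 1.00 ± 0.09 and 0.89 ± 0.09 and lay in KO recovery above every other library, PPAN by 0.51 with the offsets. FBL, the methyltransferase fibrillarin, rose by 0.80 (0.35 with the offsets), and UTP15 fell by 0.66 (−0.28).

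Nuclear genes of the respiratory chain rose broadly. Of 38 complex I subunits 31 rose and 3 fell, with a median of 0.68, beside 20.6% and 21.1% of all genes. Of 39 subunits of complexes II to V 30 rose and 3 fell, with a median of 0.72. Their median transcript lengths were 960.5 and 1179 bases. Of coding genes 55.2% rose and 5.03% fell at 600 to 1000 bases, and 41.4% and 9.29% at 1000 to 1500 bases. With the offsets the list medians were 0.44 and 0.60, and those of the length classes 0.12 and −0.02. With 1 KO library left out 21, 31, 22 and 31 and 23, 28, 26 and 28 rose, and with the offsets 26 and 28. NDUFA1, a membrane subunit of complex I, was read at 45.3 and 38.0 CPM in KO heat shock and at 188 and 172 CPM in KO recovery, against 118 to 158 CPM in WT cells (2.12 ± 0.11, adjusted p = 9.5e-11). The KO groups were thus at both ends. NDUFA3 and NDUFB11 rose by 1.93 ± 0.11 and 1.52 ± 0.11. ATP5I, a subunit of ATP synthase, went from 48.0 and 48.2 CPM to 181 and 148 CPM (1.77 ± 0.11), with WT heat shock at 168 and 142 CPM and WT recovery at 73.7 and 76.8 CPM. The cytochrome oxidase subunits COX6C, COX8A and COX6B1 rose by 1.64, 1.56 and 1.45, and UQCRH of complex III by 1.39.

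The complex I falls were NDUFA5 (−0.41, lost with the offsets and without KO heat shock 1 or recovery 1), NDUFV2 (−0.36, −0.57 with the offsets) and NDUFB5 (−0.29), the last 2 lost when any 1 KO library was left out. In complexes II to V the falls were SDHD, a membrane anchor of complex II (−0.87 ± 0.10), UQCRB (−0.42, turned to 0.08 by the offsets) and ATP5J (−0.33, −0.68 with the offsets), and the calls of UQCRB and ATP5J were lost when any 1 KO library was left out. Mitochondrial ribosomal proteins gave 39 rises and 11 falls among 76 genes (23, 33, 26 and 33 rises), with a median of 0.27, and 30 rises and 17 falls among 74 with the offsets. In 34 of them KO recovery was the highest group. MRPL14 rose from 20.9 and 21.2 CPM to 65.4 and 56.4 CPM (1.53 ± 0.10) and MRPL23 by 1.34 ± 0.10, while MRPS31 and MRPL19 fell by 0.79 and 0.76, the latter by 0.37 with the offsets.

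Mitochondrial DNA encodes further respiratory subunits and the tRNAs to translate them. Of 13 mitochondrial mRNAs 2 rose and none fell, with a median of 0.15. The rises were MT-ND4L (0.72 ± 0.11, lost without KO heat shock 1) and MT-ND4 (0.33 ± 0.12, lost with total-count scaling and without KO heat shock 1, heat shock 2 or recovery 1). Mitochondrial tRNAs are cut out of long transcripts of both strands of the circle. Of 21 tested tRNA genes 15 rose and 2 fell, with a median of 2.03, and with 1 KO library left out 13, 15, 13 and 15 rose.

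The tRNAs that moved furthest up and the pair that moved down are shown as their gene sequences on the tRNA strand, read from the GRCh38 mitochondrial sequence of GENCODE 29, with no part in capitals. MT-TW and MT-TR, for tryptophan and arginine, lie at chrM:5512-5579 and chrM:10405-10469 on the plus strand, and MT-TC and MT-TY, for cysteine and tyrosine, at chrM:5761-5826 and chrM:5826-5891 on the minus strand, sharing 1 base.
MT-TW: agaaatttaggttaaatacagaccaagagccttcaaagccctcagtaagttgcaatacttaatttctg
MT-TR: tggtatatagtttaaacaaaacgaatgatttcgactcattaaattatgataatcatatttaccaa
MT-TC: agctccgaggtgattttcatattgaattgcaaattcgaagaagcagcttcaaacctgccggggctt
MT-TY: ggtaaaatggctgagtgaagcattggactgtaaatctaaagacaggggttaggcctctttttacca
MT-TW was read at 43.7 and 29.4 CPM in KO heat shock and at 1907 and 1460 CPM in KO recovery, with WT libraries at 817 to 1388 CPM (5.54 ± 0.15, adjusted p = 1.7e-14). MT-TR was read at 24.6 and 13.1 CPM and at 907 and 794 CPM, with WT libraries at 512 to 692 CPM (5.56 ± 0.16). For both, KO heat shock was far below and KO recovery above all 4 WT libraries. MT-TG, MT-TH and MT-TV rose by 5.50, 5.02 and 3.67.

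MT-TY ran the other way, from 63.9 and 79.7 CPM to 7.63 and 18.5 CPM in KO cells (−2.52 ± 0.15, adjusted p = 3.9e-10) and from 9.98 and 13.1 CPM to 118 and 128 CPM in WT cells. MT-TC went from 37.6 and 41.8 CPM to 6.38 and 16.8 CPM in KO cells (−1.85 ± 0.18) and from 8.04 and 12.5 CPM to 106 and 118 CPM in WT cells. KO recovery overlapped WT heat shock for both genes, and WT recovery was the highest group. Of the 14 tRNA genes of the heavy-strand transcript 11 rose and 0 fell, and of the 7 on the opposite strand 4 rose and 2 fell. Each light-strand tRNA gene lies antisense to the other long transcript, and the sources used here do not say which strand was counted, so their values are uncertain. The tRNAs are short, structured and not polyadenylated like mRNAs, and the part of RNA selection in these changes was not tested. Of 23 listed abundant RNAs without a poly-A tail 15 were filtered out. Among the 8 tested 1 (RN7SL1) rose, a call lost when any 1 KO library was left out, while RN7SK (−1.49 ± 0.20), RMRP (−1.63 ± 0.20), RPPH1 (−2.10 ± 0.25) and RN7SL2 fell. Of these 5 only RN7SK had a length and GC value for the offsets, with −1.92.

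**Figure D4:**
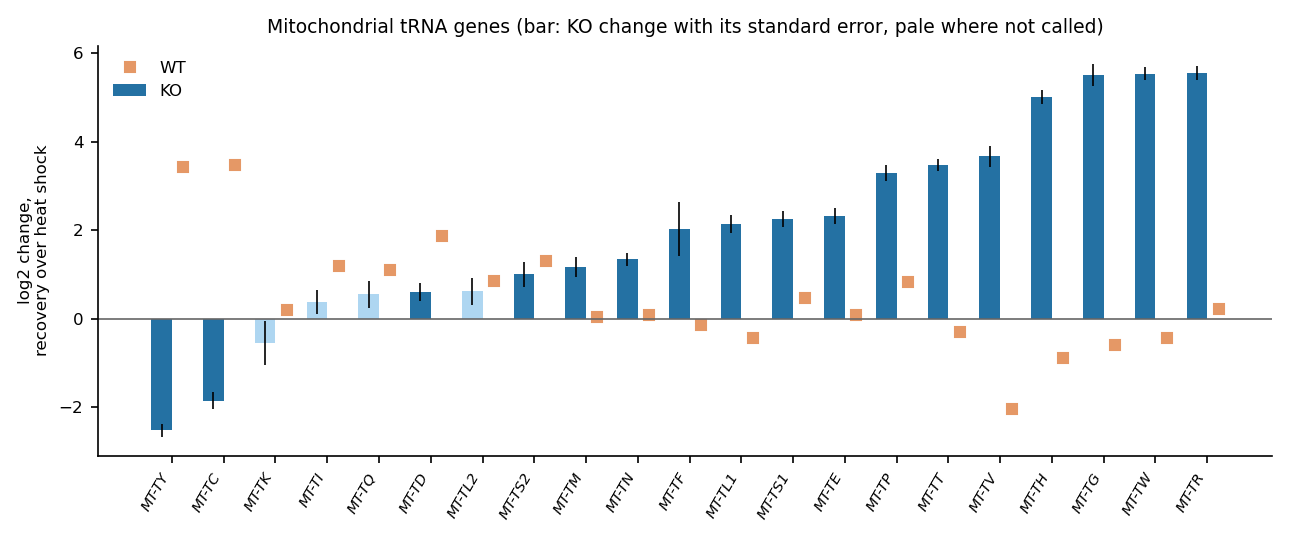
Log2 change in recovery over heat shock (y axis) of 21 mitochondrial tRNA genes, with bars for KO cells, pale where the test was not passed, error bars for the standard error, and squares for WT cells. MT-TR, MT-TW, MT-TG and MT-TH rose by over 5 in KO cells while MT-TY and MT-TC fell, and in WT cells MT-TY and MT-TC had the largest rises.

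Genes of glycolysis and hypoxia gave 15 rises and 5 falls among 30 members (5, 9, 6 and 9 rises with 1 library left out, 9 with the offsets). SLC2A1, the glucose transporter GLUT1, rose from 131 and 137 CPM to 258 and 226 CPM (0.85 ± 0.10), above all WT libraries, and PFKL by 0.69 ± 0.10. Of the hypoxia targets, ADM rose by 0.70 (0.37 with the offsets) and ANKRD37 by 0.72, a call lost with the offsets, while BNIP3L fell by 0.82 ± 0.10 (−0.44), EGLN3 by 0.77, PDK1 by 0.69, and KDM3A and EGLN1 also fell. The calls of EGLN3 and KDM3A were lost without KO heat shock 2 or recovery 2, that of PDK1 in 3 of the 4 leave-outs and with the offsets, and that of EGLN1 in all 4 and with the offsets, which also removed KDM3A.

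Cholesterol and fatty acid synthesis gave 13 rises and 8 falls among 31 members (4, 9, 6 and 10 rises), and 8 rises and 10 falls with total-count scaling. EBP and FASN rose by 0.68 (0.42 with the offsets) and 0.64, and SC5DL, MSMO1 and ELOVL6 fell by 0.64, 0.60 and 0.59, or by 0.34, 0.32 and 0.18 with the offsets, the last no longer called. Among 23 NRF2 targets 9 rose and 3 fell (4, 7, 6 and 7 rises). The ferritin chains FTL and FTH1 rose from 457 and 452 CPM to 940 and 807 CPM (0.94 ± 0.11, 0.51 with the offsets) and from 172 and 187 CPM to 344 and 310 CPM (0.86 ± 0.10). SOD1 rose by 0.70. GCLC, GCLM and SLC7A11, which feed glutathione synthesis, fell by 0.30, 0.27 and 0.28, calls lost when any 1 KO library was left out. GCLC was not called with the offsets, which gave GCLM and SLC7A11 as called rises of 0.22 and 0.32. Of 7 tested genes of the zinc response 4 rose and 1 fell. The rises were MT1F (0.84), MT1E (0.70), MT1X and MTF1, the first 3 not called with the offsets, MT1X also not without KO heat shock 1 and MTF1 not with any 1 KO library left out. The zinc exporter SLC30A1 fell by 1.05 ± 0.10, or 0.56 with the offsets.

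Genes of mitosis and the spindle fell more often than they rose. Of 41 members 18 fell and 5 rose, with a median of −0.21, against 21.1% and 20.6% of all genes. The list has a median GC content of 43.2%, and of all coding genes with 40 to 45% GC 42.9% fell and 6.36% rose. When single KO libraries were left out, 8, 15, 9 and 15 fell, and with the offsets 15 fell. Of all genes tested with the offsets 16.2% fell. In 25 members of the list both KO heat shock libraries were the highest of the 8, and in 3 both KO recovery libraries were the lowest. KIF20B, a kinesin of cell division, was read at 193 and 187 CPM in KO heat shock and at 74.2 and 90.6 CPM in KO recovery, with WT libraries at 55.7 to 102 CPM (−1.21 ± 0.11, −0.60 with the offsets). Only KO heat shock stood apart for this gene. ASPM, CENPE, KIF11 and HMMR fell by 1.00, 0.95, 0.88 and 0.88, or by 0.45, 0.34, 0.42 and 0.47 with the offsets. The rises were AURKB (0.50), CDC20, PLK1, CDC25B and INCENP, and none of the 5 was called with the offsets or without KO heat shock 1. CDC20 and PLK1 were also lost without KO recovery 1, and CDC25B and INCENP when any 1 KO library was left out.

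DNA repair and damage response genes gave 19 falls and 2 rises among 40 members, with a median of −0.25, beside 21.1% and 20.6% of all genes. The list has a median GC content of 43.5%, and of all coding genes with 40 to 45% GC 42.9% fell and 6.36% rose. Leaving out 1 KO library in turn, 3, 9, 3 and 9 fell, and with the offsets 7 fell, 7 rose and the median was 0.02. BRCA2, a protein of homologous recombination, was read at 49.7 and 47.5 CPM in KO heat shock and at 21.4 and 26.1 CPM in KO recovery, with WT libraries at 18.5 to 25.0 CPM (−1.03 ± 0.12, −0.46 with the offsets). KO heat shock was again the group that stood apart. BRIP1 and BARD1, partners of BRCA1, fell by 1.16 and 0.88, or by 0.64 and 0.38 with the offsets. The 2 rises were FANCA (0.46 ± 0.09) and RAD54L (0.46 ± 0.10, lost without KO heat shock 2 or recovery 2). Among 42 genes of DNA replication 10 rose and 7 fell (3, 8, 4 and 8 rises), with a median of 0.05 that total-count scaling turned to −0.07. TK1 rose by 0.78 (0.39 with the offsets), RFC4 by 0.64 and the helicase subunit MCM2 from 238 and 251 CPM to 381 and 353 CPM (0.58 ± 0.10). PRIM1, a primase subunit, fell by 0.58.

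Targets of p53, which HCT116 cells carry in working form, gave 9 rises and 11 falls among 30 members (3, 4, 3 and 4 rises, and 5 falls each, with 1 library left out), with a median of 0.01 that total-count scaling turned to −0.12. PLK3 rose from 18.7 and 21.9 CPM to 49.9 and 50.5 CPM (1.31 ± 0.10), GDF15 by 1.24 ± 0.10 (0.79 with the offsets) and SERTAD1 by 0.65 ± 0.10. MDM2, the ubiquitin ligase of p53, was read at 390 and 372 CPM in KO heat shock and at 222 and 252 CPM in KO recovery, with WT libraries at 178 to 233 CPM (−0.69 ± 0.10). RRM2B, ZMAT3 and TP53INP1 fell by 0.83, 0.77 and 0.72, or by 0.31, 0.28 and 0.27 with the offsets.

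Transcripts of proteins that FBXW7 is known to mark for degradation gave 13 rises and 4 falls among 31 members (5, 10, 7 and 10 rises), with a median of 0.11 that total-count scaling turned to −0.01. MYC was read at 329 and 350 CPM in KO heat shock and at 600 and 549 CPM in KO recovery, a rise of 0.76 ± 0.10 (adjusted p = 8.7e-06, 0.33 with the offsets), and at 802 and 751 CPM and then 266 and 251 CPM in WT cells. KO recovery thus lay between the 2 WT groups, and the difference of the responses was 2.35. CCNE1, cyclin E, went from 48.7 and 47.0 CPM to 65.9 and 61.3 CPM (0.41 ± 0.09), above all other libraries, a call lost without KO heat shock 1 or recovery 1 and an estimate of 0.20 with the offsets. JUNB rose by 1.19 ± 0.09, TGIF1 by 1.1 ± 0.09 and NOTCH1 by 0.54 ± 0.10. The falls were XRCC4 (−0.57, −0.31 with the offsets), TOP2A (−0.48), GATA2 (−0.39) and CCDC6 (−0.31). The calls of GATA2 and CCDC6 were lost when any 1 KO library was left out, that of TOP2A without KO heat shock 1 or recovery 1, and those of TOP2A and CCDC6 with the offsets, which turned CCDC6 to 0.04.

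Of 11 parts of SCF ligases 3 rose and 2 fell. RBX1, the RING subunit, rose from 18.6 and 22.4 CPM to 41.0 and 41.6 CPM (1.01 ± 0.13), CKS1B by 0.88 ± 0.09 and FBXO31 by 0.60 (lost without KO heat shock 1), while SKP2 and CAND1 fell by 0.38 and 0.36, calls lost with the offsets and when any 1 KO library was left out. Of 19 Notch and Wnt targets 5 rose and 2 fell. JAG1, a Notch ligand, rose from 105 and 95.9 CPM to 194 and 180 CPM (0.89 ± 0.09) and DKK1, a secreted Wnt inhibitor, from 715 and 731 CPM to 1178 and 1266 CPM (0.76 ± 0.10). KO recovery was the highest group for both, and NOTCH1, HES4 and JAG2 also rose, though HES4 not with the offsets or without KO heat shock 1 and JAG2 not with any 1 KO library left out. AXIN2, a Wnt target, fell by 0.64 ± 0.10 and NOTCH3 by 0.30, the latter not when any 1 KO library was left out. In the BCL2 family, which governs apoptosis, 4 of 17 rose (BCL2L12, BBC3, BIK and BID) and 5 fell (BMF, BCL2L13, BCL2L11, BCL2L2 and PMAIP1), and each of these calls was lost in at least 1 setting. Of 28 autophagy genes 7 rose and 6 fell, near the 20.6% and 21.1% of all genes. Their median was 0.01, and −0.03 to 0.02 with 1 KO library left out. Among the falls were ATG14 by 0.61 (−0.36 with the offsets) and the receptor NBR1 by 0.48 (−0.24).

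Among 32 SR proteins, hnRNPs and splicing kinases 8 rose and 9 fell, near the 20.6% and 21.1% of all genes. HNRNPA1 rose from 166 and 156 CPM to 465 and 427 CPM (1.47 ± 0.13), within the WT range of 287 to 507 CPM, and SRSF7 by 0.84 ± 0.11. The kinases CLK2 and CLK3, which phosphorylate SR proteins, rose by 0.76 and 0.66 (0.38 with the offsets for CLK3), and SRPK2, another such kinase, fell by 0.62 (−0.33). SRSF5 fell by 0.73 ± 0.09. Host genes of small nucleolar RNAs and nuclear RNAs gave 10 rises and 1 fall among 18 (8, 6, 10 and 6 rises). SNHG9 was read at 4.42 and 4.55 CPM in KO heat shock and at 92.1 and 50.6 CPM in KO recovery, against 12.8 to 30.7 CPM in WT cells (3.91 ± 0.17), and SNHG6 and SNHG12 rose by 1.45 and 0.95. NEAT1, the scaffold of paraspeckles, rose from 9.73 and 8.67 CPM to 15.6 and 20.0 CPM (0.96 ± 0.13), below WT recovery at 50.1 and 62.5 CPM. MALAT1 was the fall (−0.44 ± 0.14), turned to 0.02 by the offsets and to 0.01 without KO recovery 1, and lost without KO heat shock 1 and with DESeq2. Replication-dependent histones, whose mRNAs lack a poly-A tail, gave 2 rises (HIST2H2AC and HIST1H2BK) and 4 falls (HIST1H1E, HIST1H2AM, HIST1H3D and HIST1H3B) among 24. HIST2H2AC was the 1 of these 6 called in all KO leave-outs, HIST1H2BK was not called with the offsets, and HIST1H2AM and HIST1H3B could not be fitted with them. The 41 chromatin regulators with long transcripts gave 8 rises and 8 falls, near the shares of all genes, or 17 and 1 of 40 with the offsets, where 18.9% of all genes rose and 16.2% fell.

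The largest family that fell was that of ZNF genes, which encode zinc-finger factors, many of them repressors. Of 372 tested members 162 fell and 32 rose, with a median of −0.37, beside 21.1% and 20.6% of all genes. The list has a median GC content of 44.5%, and of all coding genes with 40 to 45% GC 42.9% fell and 6.36% rose. In the fits without 1 KO library 70, 111, 76 and 111 fell, and with the offsets 99 fell and 45 rose with a median of −0.16. Of all genes tested with the offsets 16.2% fell and 18.9% rose. In 126 ZNF members both KO recovery libraries were the lowest of the 8, and in 77 both KO heat shock libraries were the highest. In WT cells 89 rose and 88 fell, near the 24.8% and 26.0% of all genes. ZNF607, ZNF593 and ZNF385C went against the family and rose by 2.33, 1.84 and 2.41.

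Epithelial genes were present as the cell line requires, with 24 of 25 markers detected in the KO libraries (LGALS4 was at 0). The 21 tested members summed to 2619 and 2730 CPM upon heat shock and to 3043 and 2937 CPM after recovery. Of these 5 rose and 6 fell, beside 20.6% and 21.1% of all genes. CLDN4, a tight-junction protein, rose from 21.5 and 22.6 CPM to 48.7 and 45.2 CPM (1.09 ± 0.10), below all WT libraries, and KRT18 by 0.62, a call lost with the offsets and without KO heat shock 1, while VIL1 and ESRP1 fell by 0.75 (−0.45 with the offsets) and 0.72 (−0.47). KRT7, ELF3 and KRT19 also rose. ELF3 lost its call without KO heat shock 1 or recovery 1, and KRT7 and KRT19 with the offsets and when any 1 KO library was left out. The 8 tested mesenchymal markers summed to 77.8 and 73.4 CPM upon heat shock and to 78.1 and 74.3 CPM after recovery, with TWIST2, ZEB2 and LUM at 0 of 18. The 2 tested immune and erythroid markers summed to 16.4 and 18.2 CPM upon heat shock and to 21.8 and 17.6 CPM after recovery, with CD3E, NKG7 and PPBP at 0 of 16.

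**Figure D5:**
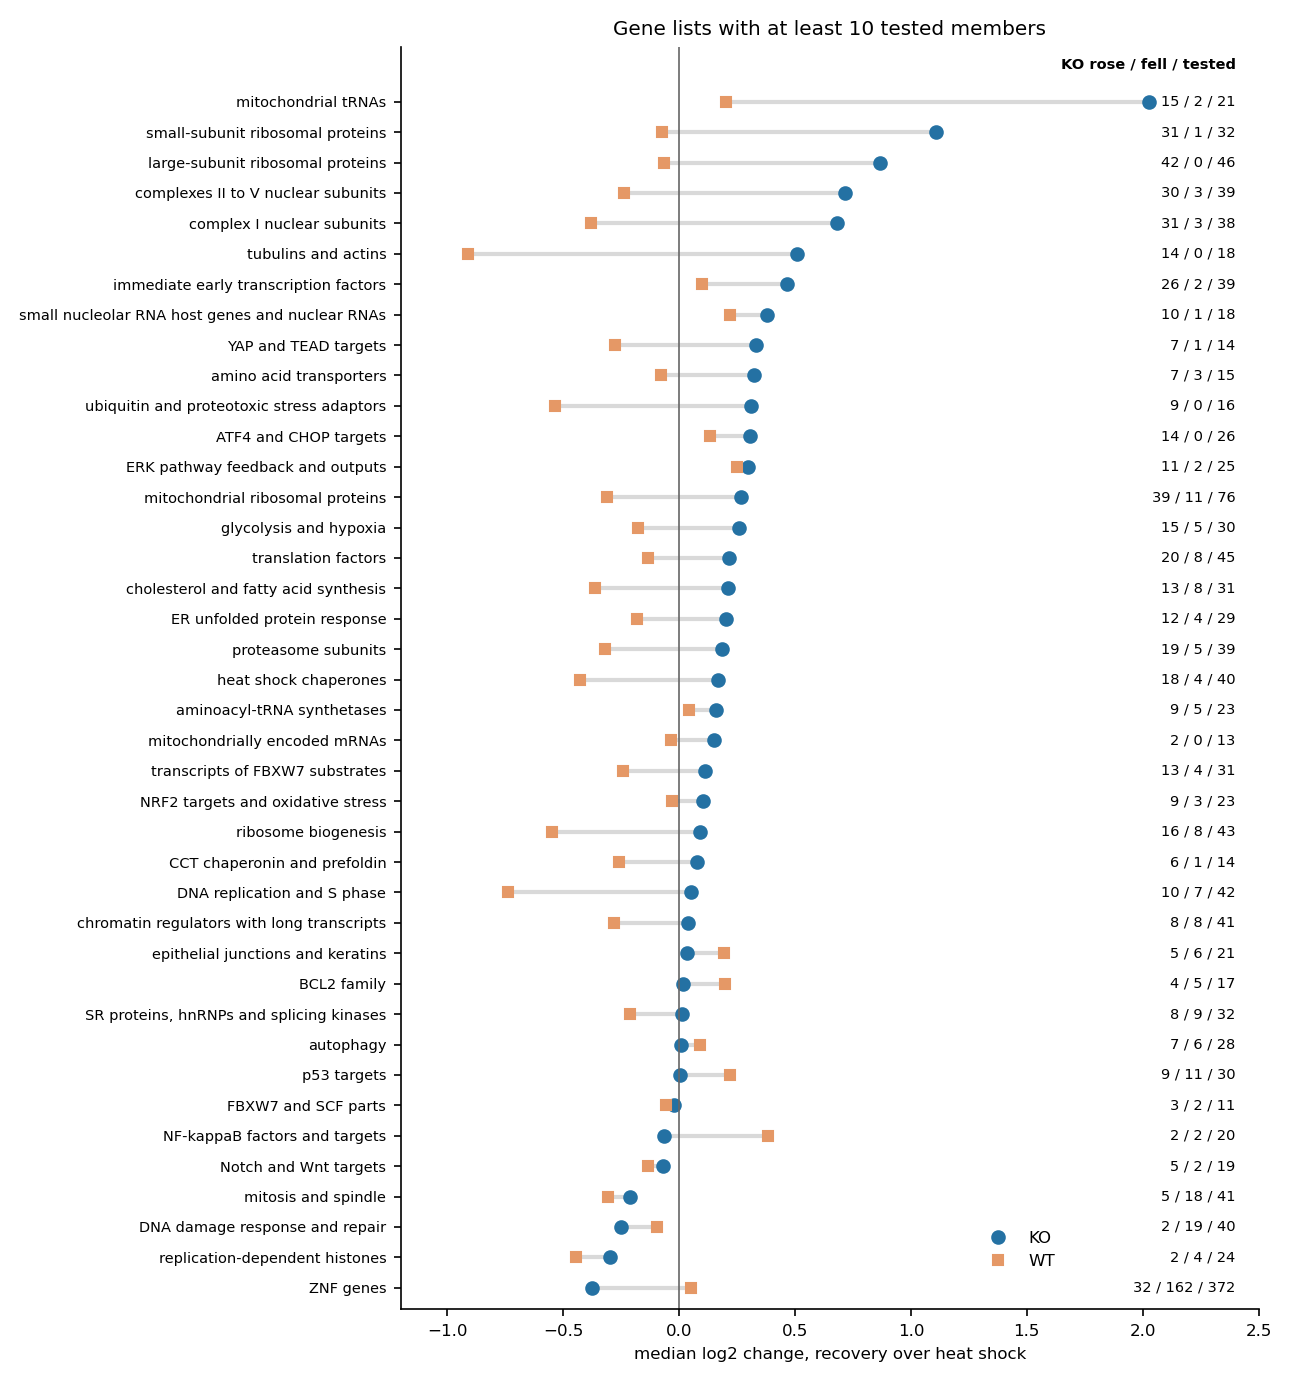
Median log2 change in recovery over heat shock (x axis) of each gene list with at least 10 tested members, for KO cells (circles) and WT cells (squares), with the number of members that rose, fell and were tested in KO cells at the right. Mitochondrial tRNAs (2.03), small-subunit (1.11) and large-subunit (0.87) ribosomal proteins had the highest KO medians and ZNF genes (−0.37) the lowest.

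The largest rises were ranked among protein-coding and named long non-coding genes with a mean count of at least 50. Small RNAs, the mitochondrial tRNAs among them, were not ranked. Of the 15 ranked genes with the largest rises, RPS27, RPS28, RPS3A, RPL21, RPL17 and SNHG9 are described above. The other 9 were low in KO heat shock, at under 2 CPM. WDR38 was read at 0.973 and 0.398 CPM in KO heat shock and at 46.2 and 24.1 CPM in KO recovery, against 13.8 to 34.1 CPM in WT cells (5.69 ± 0.18). OVOL3 was read at 0.0374 and 0.0853 CPM and at 5.71 and 3.54 CPM, against 1.42 to 4.66 CPM (6.0 ± 0.40). Of the 15, 10 overlap a coding gene, 9 of them on the other strand, and reads of the partners cannot be told apart while the counting strand is not given. The change of RPL35, opposite WDR38, was 0.86, and that of POLR2I, opposite OVOL3, was 1.70. PHOX2A, IFFO1, NAALADL1, RASGRP4, CAPS, SULT1A3 and REC8 rose by 3.08 to 3.81, and SULT1A3 has a near-identical copy.

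The 15 largest falls by the same ranking were smaller, between −1.29 and −2.36. MT-TY, which was not ranked, had a change of −2.52. HRG was read at 10.1 and 10.8 CPM in KO heat shock and at 2.23 and 2.70 CPM in KO recovery, against 1.69 to 2.31 CPM in WT cells (−2.08 ± 0.17). CAPN12, a calpain gene that lies opposite ACTN4, was read at 87.7 and 118 CPM and at 24.5 and 26.6 CPM, against 17.7 to 70.6 CPM (−2.0 ± 0.17). KO heat shock was the highest group for both. Of the 15, 6 were ZNF genes, namely ZNF469, ZNF684, ZNF624, ZNF107, ZNF180 and ZNF302. BACH2, a transcription repressor, fell from 4.79 and 4.66 CPM to 1.87 and 1.94 CPM, below WT cells at 5.75 to 9.60 CPM (−1.30 ± 0.19). CCDC110, RBM43, TCP11L2 and PPP4R4 had changes of −1.79, −1.78, −1.35 and −1.34. SAMD9, OGFRL1, ZNF624 and ZNF107 had changes of −1.38, −1.29, −1.32 and −1.30, and with the offsets of −0.81, −0.70, −0.84 and −0.72.

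The difference of the 2 responses, tested as an interaction in the same model, was higher in KO for 4979 genes (28.5%) and lower for 4854 (27.8%). This near-even split depends on the scaling. Total-count scaling gave 3542 higher and 6431 lower, and upper-quartile scaling 4417 and 5530. With the offsets for GC and length the counts were 4457 and 3922 of 16673 genes. Of the genes with a called difference, 2004 rose in KO and fell in WT cells and 1829 fell in KO and rose in WT cells, while 314 genes rose in both lines and 339 fell in both. HSPA1B had a difference of 4.12, DNAJB1 of 2.57, FOS of 1.92 and HSPH1 of 1.52, each from a KO rise and a WT fall. These differences share the KO and WT heat shock libraries as their baselines. The KO heat shock libraries, which were low in ribosomal protein and mitochondrial tRNA transcripts, thus enter every one of them. Whether what set these libraries apart also moved other genes was not tested.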

How the data were processed

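RNA from HCT116 cells was sequenced strand-specifically as single reads of 50 bases. Read counts per Ensembl gene were deposited by the authors in tables of 1 recovery and 1 heat shock library each, made from reads aligned with TopHat to hg19, with CASAVA also named, per the submitters' processing notes. The sources used here do not state the counting program, its strand setting or the annotation. The authors' deposited tables also hold log2 fold changes, z-scores, p-values and q-values for each pair of libraries per the file headers. The z-score columns, a score that the authors computed for each comparison of 2 libraries, were not used.

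Genes listed without a count were set to 0. Counts were filtered with filterByExpr, scaled by TMM and fitted with edgeR 4.0.16 (R 4.3.3, limma 3.58.1) by the quasi-likelihood F test, with the library pair as a block, 1 recovery effect per cell line and their difference, which left 2 residual degrees of freedom. Adjustment over 17471 genes was by Benjamini-Hochberg, with a p threshold of 0.05. The pairing follows the design text; same-numbered libraries did not deviate together across genes (r = −0.0259 in KO and −0.0144 in WT cells). Replicate libraries differed by more than sampling noise (chi-square per degree of freedom 5.185 for KO heat shock, 8.587 for KO recovery). GC and length offsets were lowess fits (span 0.3) per library on GENCODE 29 transcripts (GRCh38), matched by gene ID for 16673 tested genes; no coordinates were converted. Promoters came from RefSeq tables (GRCh38.p14), matched by symbol.

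The members and the 45 gene lists were chosen with earlier results of these data known. From each list up to 5 called members with the largest rise and 5 with the largest fall were eligible to be named, besides all members of a count of 5 or fewer, the 15 largest rises and falls overall among genes with a mean count of at least 50, and FBXW7, HSF1, HSF2, MYC, JUN, CCNE1, HSPA1B, DNAJB1, HSPH1, EGR1, FOS, ATF3, DDIT3 and ATF4. The overall ranking took called genes of a protein-coding or named long non-coding type that moved the same way in both KO pairs. Clone names, pseudogenes and small RNAs were left out of it. Differences of the responses were ranked in the same way, with the same direction in both WT pairs as well. The fit was tested on simulated data. DESeq2 1.42.0, other scalings and filters, no block, the 4 KO libraries alone, the offsets and leaving out each library were tried as alternatives; total-count scaling was added after the data were seen. A few genes that the naming rule allows are not reported here.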

Additional observations from a re-analysis of the deposited data

Results flagged for a closer look

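The responses of KO and WT cells differed, by the interaction term of the edgeR model, upward in KO for 4979 genes and downward for 4854. With total-count scaling these counts became 3542 and 6431. Differences of single genes were ranked by the rule given above, which leaves out small RNAs. The largest upward KO minus WT differences on the log2 scale were those of OVOL3 (7.605), WDR38 (6.792), FAM166A (5.04), SNHG9 (4.925) and RPS28 (4.532). FAM166A lies opposite TUBB4B, so its reads and those of TUBB4B cannot be told apart. The largest downward in that ranking were those of EDARADD (−5.34), ZNF469 (−4.085), ZNF90 (−3.945), CCDC110 (−3.781) and PDK4 (−3.686).

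Among the genes named whatever their values, the test of the difference was also passed by the chaperones HSPA1B (4.122), DNAJB1 (2.572) and HSPH1 (1.515), and by HSF1 (0.698) and HSF2 (−1.11). Among FBXW7 substrates it was passed by MYC (2.345), CCNE1 (0.988) and JUN (0.6513). EGR1 (2.683), FOS (1.917), DDIT3 (0.947) and ATF4 (1.077) passed it as well. What produced these differences was not tested.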

How the results depend on the processing

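The counts of 3601 rises and 3694 falls stand beside 2311 and 2355 with DESeq2 over 32200 genes, whose overlap with them was not counted. Leaving out 1 KO library gave 1520 to 2447 rises and 1318 to 2207 falls, with fewer samples and 1 residual degree of freedom, while leaving out 1 WT library gave 4211 to 4233 rises and 4008 to 4012 falls. The 4 fits without a KO library hold only 1 KO pair each, pair 1 or pair 2, with the residual spread taken from the WT pairs. They are therefore not 4 separate checks of a call. Without the replicate block the counts were 3611 and 3788, and of 271 named genes only NDUFB5, SLC7A11, NOTCH3 and MALAT1 lost the call; the numbers do not pair the libraries by their deviations, and the cause was not tested. All 271 kept their side of the threshold with RLE and upper-quartile scaling. DESeq2 ended the call of 29 of 267 named genes: HSF1, SGK1, SPRED1, TGFB2, TNFAIP3, NDUFB5, ATP5J, EGLN3, PDK1, SLC7A11, GCLM, GATA2, NOTCH3, MALAT1, PDK4, SLC16A10, AIMP1, RN7SL1, MTF1, INCENP, BBC3, BIK, BCL2L11, BCL2L2, PMAIP1, HIST1H2BK, HIST1H1E, HIST1H3D and KRT7. Without a filter on low counts SLC7A11, GCLM, NOTCH3, PSMD12, LARS, EPRS, AIMP1 and PMAIP1 lost it. Total-count scaling ended the calls of HSF1, HSPH1, ATF4, MT-ND4, MTF1, INCENP, JAG2, BIK, HIST1H2BK, KRT7 and KRT19 and brought FBXW7 and EDARADD past the threshold as falls. It also turned the medians of the lists of chaperonin, ribosome biogenesis, replication, p53, NRF2, FBXW7 substrate, BCL2 family, autophagy, splicing, chromatin, epithelial and mesenchymal genes below 0. The GC and length offsets, run with the replicate block, turned the direction of 22 of 265 named genes: SLC7A11 to 0.32, GCLM to 0.22, SPRED1 to 0.195, PSMD12 to 0.19, AIMP1 to 0.14, FBXW7 to 0.12, BAG2 to 0.12, CAND1 to 0.12, UQCRB to 0.0764, LARS to 0.0751, PSME4 to 0.0664, EPRS to 0.0538, CCDC6 to 0.0429, MALAT1 to 0.0191, SLC36A4 to 0.0131, ETV1 to 0.0128, EIF1AX to 0.0121, ATF6 to 0.0115, BAG5 to 0.00684, PMAIP1 to 0.00332, HIST1H2BK to −0.0389 and KRT19 to −0.11. Of these only SLC7A11 and GCLM passed the test in the new direction. With 1 library left out, ATF3 ranged from −0.0221 (without KO heat shock 2) to 0.468 and MALAT1 from −0.873 to 0.0135 (without KO recovery 1). Depth limits genes near 1 CPM, such as CXCL1 and the histones.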
